A study of Mus musculus with 18 samples.

Results

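Calcitonin gene-related peptide (CGRP) is a neuropeptide that nociceptors, the sensory neurons that detect damaging stimuli, store in dense-core vesicles and release from their endings. It is encoded by a pair of genes, Calca for alpha-CGRP and Calcb for beta-CGRP, and Calca can also be spliced to encode the hormone calcitonin. Its receptor is built from Calcrl, a G protein-coupled receptor also called CLR, and Ramp1, a single-pass accessory protein that brings CLR to the cell surface and gives it its selectivity for CGRP; the receptor acts mainly through Gs and cyclic AMP. These 4 genes, of 22021 listed, are described here in dorsal root ganglia (DRG), the ganglia that hold the cell bodies of the sensory neurons. They were chosen by symbol, with earlier TRAP and input values of these same libraries known, among them the values of Calca in both treatments. Their differences are therefore given as descriptions, with no test.

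All animals were Nav1.8-trap mice, male and female littermates of 8 to 12 weeks on a C57BL/6J background that carried the Nav1.8cre and Rosa26fsTRAP alleles. Cre driven from the Scn10a (Nav1.8) promoter switches on the ribosomal protein L10a fused to EGFP, so that anti-GFP beads recover ribosomes and their mRNA from Nav1.8 neurons, mostly nociceptors. Each DRG lysate gave 1 library of its total RNA, called input, and 1 of the RNA on the beads, called TRAP (translating ribosome affinity purification) or pulldown, both read at the 3′ transcript ends. Biosamples 1 to 4 were normal and biosamples 5 to 8 had received paclitaxel, so that there were 4 groups of 4. Paclitaxel, a chemotherapy agent that binds microtubules and often leaves patients with neuropathic pain, was injected intraperitoneally at 4 mg/kg in cremaphor vehicle every other day, 4 times over 8 days (16 mg/kg in all). The treatment notes mention animals dosed with vehicle alone; whether these are the normal biosamples is not stated. The number of animals behind a biosample is not stated either, so the spread between biosamples may be partly technical.

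The 18 libraries held 4266007 to 32713514 reads over the listed genes, and 3 reads, taken as the floor of detection, corresponded to 0.0917 to 0.703 CPM (counts per 1000000 reads over the listed genes, here a limit that covers counting error only). Biosample 7 had 2 subsamples per fraction, which were averaged, giving 16 libraries. Scn10a was higher in TRAP than in input in 8 of 8 biosamples, but unevenly. On the log2(CPM + 1) scale it rose by 0.0872 and 0.0497 in normal biosamples 2 and 4, and by 1.14 and 1.07 in normal biosamples 1 and 3. In the paclitaxel biosamples it rose by 1.07 to 1.45. Biosamples 2 and 4 also had the larger Calca falls among the normal biosamples, -1.35 and -1.03, against -0.82 and -0.55 in biosamples 1 and 3. The part of this uneven Scn10a rise in the Calca differences was not tested. The pulldowns differed in how many genes they held: 9715 and 10147 genes reached 1 CPM in those of biosamples 1 and 2, 10884 and 10399 in those of biosamples 5 and 6, and 11897 to 13228 in the other 4. The value for biosample 7 is that of its averaged subsamples: subsample 1 of its pulldown alone held 8081 genes, the fewest of the 9 pulldown libraries, and subsample 2 held 11945. Across all 14214 genes tested, the median difference of TRAP from input on the log2(CPM + 1) scale was -0.66 in normal and -0.56 in paclitaxel biosamples. Median-ratio scaling moved these medians to -0.33 and -0.29, quantile normalization to 0.00049 and 0.04, and edgeR, which adds no 1 to each value, to -0.44 and -0.36. Between treatments the median was 0.17 in TRAP and 0.14 in input, and under these alternatives it lay between -0.03 and 0.05.

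Calca and Calcb lie on mouse chromosome 7 (GRCm38), Calca at 114631478 to 114636357 on the minus strand (ENSMUSG00000030669.13) and Calcb at 114718643 to 114723365 on the plus strand (ENSMUSG00000030666.11), 82.3 kb apart. The coding stretches of the mature peptides are shown because they are what the paired genes share and where they differ. They were read from the GENCODE vM21 transcripts, 5′ to 3′ in the sense of each gene, and the capitals mark the bases that differ between alpha- and beta-CGRP:
Calca, alpha-CGRP (Calca-201, exon 4 of 5, chr7:114632470-114632580, minus strand): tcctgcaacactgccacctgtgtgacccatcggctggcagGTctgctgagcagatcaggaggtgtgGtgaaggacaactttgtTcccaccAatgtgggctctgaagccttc
Calcb, beta-CGRP (Calcb-201, exon 4 of 5, chr7:114721994-114722104, plus strand): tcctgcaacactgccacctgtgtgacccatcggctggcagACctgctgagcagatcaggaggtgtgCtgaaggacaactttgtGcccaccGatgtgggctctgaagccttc
Calca, calcitonin (Calca-202, exon 4 of 4, chr7:114633665-114633760, minus strand): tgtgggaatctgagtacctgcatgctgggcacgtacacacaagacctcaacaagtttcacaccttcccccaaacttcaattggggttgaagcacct

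The CGRP stretches were identical at 106 of 111 bases, and 34 of their 37 codons encode the same residue. The libraries were read from the 3′ ends, where the genes are less alike: none of the 276 words of 25 bases in the last 300 bases of Calca-201 occurred in the last 300 bases of Calcb-201, and their best local alignment held 44 identical bases of 52. The calcitonin stretch, 96 bases, lies in an exon that the CGRP transcript of Calca skips, and Calca-202 ends at 114633293 where Calca-201 ends at 114631478. The deposited value is 1 per gene, so calcitonin and CGRP transcripts of Calca cannot be told apart. Calcrl lies at chromosome 2, 84330626 to 84425411, minus strand (ENSMUSG00000059588.13), and Ramp1 at chromosome 1, 91179822 to 91225196, plus strand (ENSMUSG00000034353.14). No other annotated gene overlaps any of the 4, and all 4 passed the filter for testing, which asked for 1 CPM or more in no fewer than 4 of the 16 libraries.

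The first question was what share of the reads the CGRP peptide genes held in the pulldown, relative to the input of the same ganglia. In normal ganglia Calca had a smaller share in the pulldown than in the input, and in paclitaxel ganglia a larger one. In the 4 normal inputs Calca had 925.84, 1835.88, 1392.18 and 751.76 CPM, and in the TRAP libraries of the same biosamples 522.91, 717.37, 950.08 and 367.7 CPM. TRAP was the lower of the pair in 4 of 4 biosamples, although the ranges of the groups overlapped. The input mean was 1226 ± 488 CPM and the TRAP mean 640 ± 252 CPM (SD, n = 4). The difference was -0.94 on the log2(CPM + 1) scale (SE 0.179 from the limma fit). Of all tested genes, 36.4% were lower in TRAP in 4 of 4 normal biosamples and 8.41% were higher in 4 of 4. The Calca difference lay at the 37.3 percentile of all tested genes, close below their median. This place moved with the scaling. Under quantile normalization the difference was -1.08, where the median was 0.00049, and with edgeR it was -0.42, where the median was -0.44.

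In the paclitaxel inputs Calca had 1051.63, 1072.91, 1409.84 and 1309.35 CPM, and in the paclitaxel TRAP libraries 1994.12, 1802.93, 2976.48 and 1719.93 CPM. Every TRAP value lay above every input value. The input mean was 1211 ± 177 CPM and the TRAP mean 2123 ± 580 CPM (SD, n = 4), which differ by 0.79 (SE 0.179). TRAP was higher in 4 of 4 biosamples, as it was for 11.5% of all tested genes, while 36.5% were lower in 4 of 4. The difference lay at the 94.2 percentile. The subsamples of biosample 7 were near each other, with 1455.18 and 1364.49 CPM in input and 2797.37 and 3155.59 CPM in TRAP.

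Calcb was the less abundant of the peptide genes in every library. Its normal inputs had 76.46, 178.39, 100.84 and 56.49 CPM and its normal TRAP libraries 84.96, 68.55, 113.39 and 42.19 CPM. The pairs went both ways, with TRAP higher in 2 of 4 biosamples. The mean difference was -0.37 (SE 0.253), and its sign turned under median-ratio scaling (0.07) and with edgeR (0.15). In the paclitaxel inputs Calcb had 118.1, 103.95, 150.335 and 142.75 CPM, and in the paclitaxel TRAP libraries 273.67, 221.8, 187.51 and 216.43 CPM. As for Calca, each of these TRAP values exceeded each input value, but for Calcb this holds only with the subsamples of biosample 7 averaged. Taken apart, they had 120.79 and 179.88 CPM in input and 162.56 and 212.46 CPM in TRAP, so the fractions overlapped. The difference was 0.80 (SE 0.253), near that of Calca, and TRAP was higher in 4 of 4 biosamples.

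**Figure D1:**
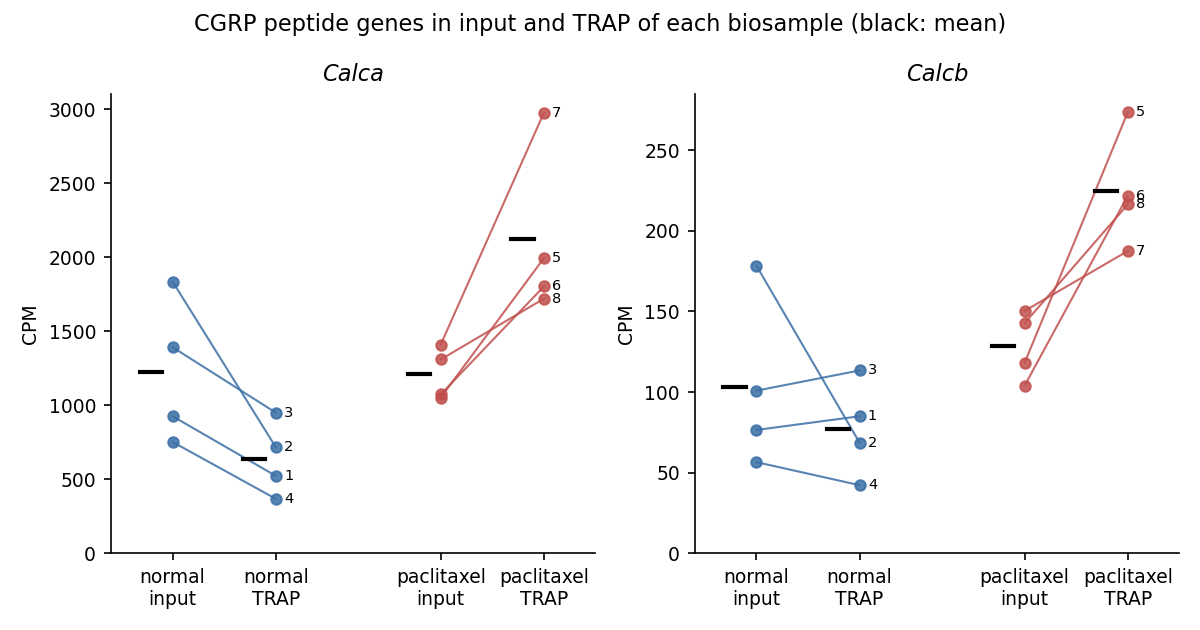
Calca and Calcb in CPM (y axes, linear, from 0) for input and TRAP of each normal (blue) and paclitaxel (red) biosample. Lines join the libraries of 1 biosample, numbers name the biosample and black lines are group means; the Calca lines go down in the 4 normal biosamples and up in the 4 paclitaxel biosamples.

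Set between treatments, the peptide genes differed in the pulldown and overlapped in the input. In TRAP, Calca was higher in paclitaxel than in normal biosamples by 1.78 (SE 0.315), 3.44-fold on the log2(CPM + 1) scale, and Calcb by 1.60 (SE 0.309), 3.04-fold. For both genes the lowest paclitaxel TRAP library, at 1719.93 CPM for Calca and 187.51 CPM for Calcb, exceeded the highest normal one, at 950.08 and 113.39 CPM. All paclitaxel values lay above all normal values in 6.73% of the tested genes. In the input the difference was 0.06 (SE 0.279) for Calca and 0.44 (SE 0.292) for Calcb, and the groups overlapped for both genes; groups did not overlap, in either direction, in 11.3% of all tested genes. The sign of the small Calca difference in input turned without biosample 1 (-0.05), 4 (-0.15) or 7 (-0.02), under median-ratio scaling (-0.05) and with edgeR (-0.16).

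The order of the Calca means was paclitaxel TRAP, then both inputs, which did not differ beyond their spread, then normal TRAP. Calcb had the same order at its top, but its normal TRAP (77.3 ± 29.8 CPM) and normal input (103 ± 53.4 CPM) values overlapped (SD, n = 4). By rank within a library, Calca stood at places 38 to 157 in the normal inputs and 53 to 83 in the paclitaxel inputs. In the pulldowns it stood at 122 to 451 in normal and 19 to 56 in paclitaxel biosamples. Calcb stood at 1842 to 3797 in the normal pulldowns and 718 to 1113 in the paclitaxel pulldowns. Ranks do not depend on how a library is scaled, and those of the paclitaxel and normal pulldowns did not overlap for either gene.

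The paired difference itself, TRAP minus input, was larger in paclitaxel than in normal biosamples by 1.72 (SE 0.253) for Calca and by 1.17 (SE 0.358) for Calcb, and the biosample values of the treatments did not overlap for either; all paclitaxel values lay above all normal values in 3.78% of the tested genes. Calca, but not Calcb, was lower in TRAP in 4 of 4 normal biosamples and higher in 4 of 4 paclitaxel biosamples, a pattern shared by 0.732% of the tested genes. Calca kept its direction in each treatment under all 18 alternatives tried. The size of the paired differences moved with the scaling, to -0.50 and 1.10 under median-ratio scaling and to -0.42 and 1.17 with edgeR, while their contrast between treatments stayed between 1.53 and 1.86. For Calcb that contrast ranged from 0.58, without biosamples 1, 2, 5 and 6, to 1.34. Leaving out those 4 biosamples, the 2 of each treatment whose pulldowns held the fewest genes after averaging of subsamples, gave Calca differences of -0.79 in normal and 0.74 in paclitaxel and a contrast of 1.53. With subsample 2 of biosample 7 in place of the average, and so without the pulldown library of 8081 genes, the paclitaxel difference was 0.82 for Calca and 0.78 for Calcb, and the contrasts were 1.76 and 1.15.

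**Figure D2:**
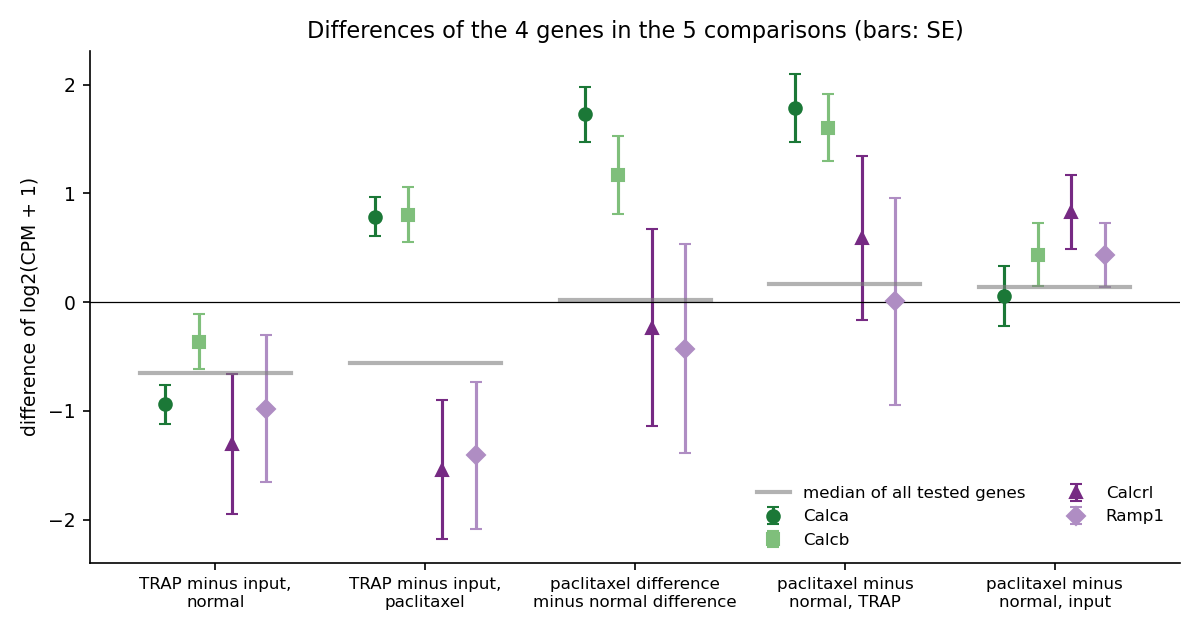
Differences of log2(CPM + 1) for Calca, Calcb, Calcrl and Ramp1 in the 5 comparisons (x axis), with the SE of the limma fit as bars and the median of all tested genes as grey lines. Calca and Calcb stand above the grey line from the paclitaxel pulldown comparison to the TRAP comparison between treatments, while the receptor genes have the longest bars wherever pulldowns enter.

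A ratio within a library does not depend on its scaling. The ratio of Calca to Scn10a, the gene whose promoter marks the tagged neurons, was 2.09, 1.81, 2.11 and 1.37 in the normal inputs and 0.535, 0.666, 0.685 and 0.648 in the normal pulldowns. It was lower in TRAP in 4 of 4 biosamples, and these were the lowest of all 16 values. In paclitaxel the inputs had ratios of 1.76, 1.66, 2.99 and 2.46 and the pulldowns 1.22, 1.13, 3.01 and 1.23. Here TRAP was lower in 3 of 4 biosamples: relative to Scn10a, only the pulldown of biosample 7 exceeded its input, but each of the 4 exceeded each normal pulldown. The mean ratio was 0.634 ± 0.0675 in normal TRAP and 1.65 ± 0.910 in paclitaxel TRAP (SD, n = 4), the second raised by biosample 7. For Calcb the ratio was 0.0637 to 0.0869 in the normal pulldowns and 0.139 to 0.190 in the paclitaxel pulldowns, again with no overlap, and it was lower than in input in 4 of 4 biosamples of each treatment.

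The ratio of Calca to Calcb was 10.3 to 13.8 in the normal inputs and 6.15 to 10.5 in the normal pulldowns. It was 8.90 to 10.3 in the paclitaxel inputs and 7.29 to 15.9 in the paclitaxel pulldowns, where the highest value was biosample 7 and the other 3 lay at 8.13 or below. Each transcript is counted at its 3′ end, so these values compare transcript numbers with no division by length. The pulldowns of the treatments thus overlapped in this ratio. Of the normal inputs (12.4 ± 1.56, SD, n = 4) only the lowest fell within the range of the paclitaxel inputs (9.44 ± 0.616). Over the 16 libraries Calca and Calcb followed each other with Pearson r 0.89 and Spearman rho 0.91, a description of libraries that share groups and biosamples.

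**Figure D3:**
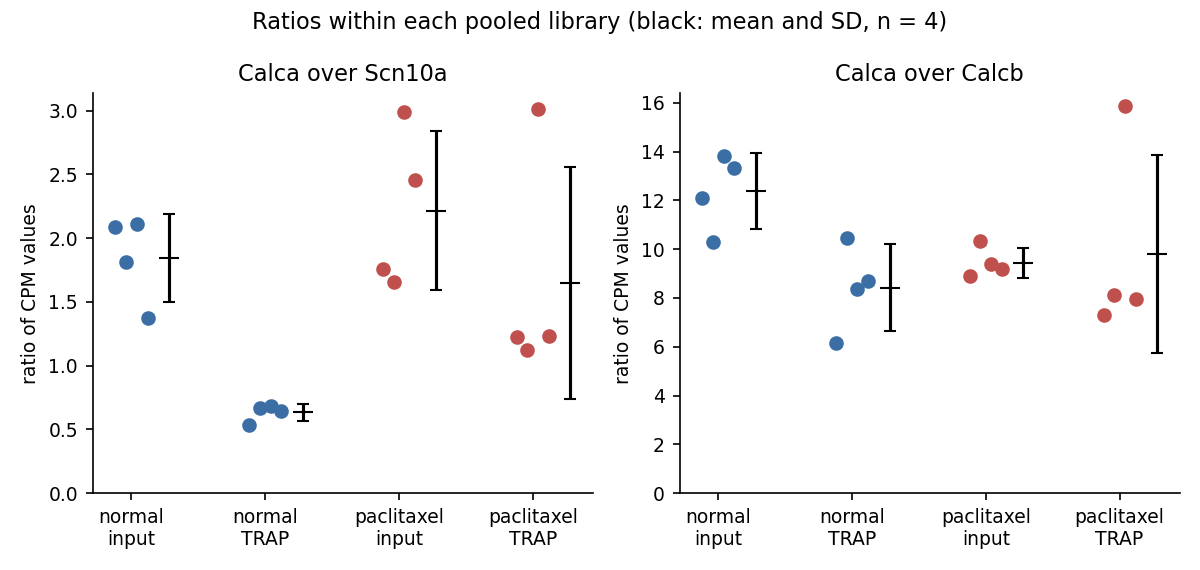
Ratio of Calca to Scn10a (left) and of Calca to Calcb (right) within each of the 16 pooled libraries, by group, on linear axes from 0; black marks are mean and SD. The normal pulldowns have the lowest Calca to Scn10a ratios, 0.535 to 0.685, and 1 paclitaxel pulldown, biosample 7, stands above the other 3 in both ratios.

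Other markers of peptidergic nociceptors, the class that makes CGRP, were set beside these values. Of 9 such markers, 1 was higher and 3 were lower in the normal pulldowns (limma, adjusted p under 0.05), 3 were higher and 0 lower in the paclitaxel pulldowns, and their medians were -0.64 and 0.73. Of all tested genes 5.09% were called higher and 24.7% lower in the normal pulldowns, the latter near the share of these markers, and 4.92% and 23% in the paclitaxel pulldowns. Trpv1, the capsaicin receptor, fell by 1.14 in the normal pulldowns (limma adjusted p = 0.0237; not passed without biosample 1, 2 or 3, 0.0625 to 0.0893) and had a difference of 0.73 in paclitaxel (0.141). Between treatments the median difference of the 9 markers was 1.52 in TRAP and 0.12 in input, where that of all tested genes was 0.17 and 0.14. Tac1, the substance P gene, lay below this marker median in TRAP, with a difference of -0.32 (limma adjusted p = 0.613). Summed over the 9 markers, the level was 1531 to 3070 CPM in the normal pulldowns and 2820 to 3125 CPM in the paclitaxel pulldowns, and 1124 to 1915 and 975 to 1427 CPM in the inputs. Of 8 large-fibre neuron markers 0 were at 0 in all biosamples of any group, and their sum was 545 to 1093 CPM in the normal and 696 to 1214 CPM in the paclitaxel pulldowns. In the inputs the sum was 990 to 1437 and 1471 to 1774 CPM. Called lower than input were 6 in the normal and 7 in the paclitaxel pulldowns, and 0 were higher (limma, adjusted p under 0.05), with medians of -1.21 and -1.33. The sum of 8 pan-neuronal markers was lower in paclitaxel, at 11706 to 18228 CPM against 22284 to 45871 CPM in TRAP and at 6460 to 8982 against 13538 to 14569 CPM in input. Most of this sum is Uchl1, Tubb3 and Prph, with means of 18685, 7591 and 5061 CPM in normal TRAP and 7446, 3999 and 2040 CPM in paclitaxel TRAP, whereas Rbfox3 had 249 and 352 CPM and Pou4f1 226 and 224 CPM. Between treatments 0 of the 8 passed in TRAP and 1, Uchl1, was lower in input (limma, adjusted p under 0.05). The part of these levels in the Calca and Calcb differences was not tested. In whole ganglia and in pulldowns, fewer neurons of a type and less RNA per neuron cannot be told apart.

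The receptor genes were at low levels, and their pulldown values varied widely between biosamples. Calcrl, the receptor itself, had 4.87, 2.2, 5.94 and 6.33 CPM in the normal inputs and 2.74, 1.01, 1.91 and 0.17 CPM in the normal pulldowns. TRAP was lower in 4 of 4, and the last value rests on 1 read, below the floor. In the paclitaxel inputs Calcrl had 6.95, 5.82, 11.22 and 13.16 CPM and in the paclitaxel pulldowns 0.2, 6.85, 2.21 and 3.31 CPM. Here TRAP was lower in 3 of 4; the exception, biosample 6, rests on 224 reads, while biosample 5 has 3. Differences were -1.31 (SE 0.641) in normal and -1.54 (SE 0.641) in paclitaxel, at the 22.8 and 16.8 percentiles of all genes. Under quantile normalization the normal difference was 0.05.

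Calcrl in the inputs was 4.84 ± 1.86 CPM in normal and 9.29 ± 3.47 CPM in paclitaxel (SD, n = 4). The difference was 0.82 (SE 0.340), at the 92.1 percentile, but the groups overlapped, with 5.82 CPM as the lowest paclitaxel and 6.33 CPM as the highest normal value. In TRAP the difference was 0.59 (SE 0.751), and the paired differences contrasted by -0.24 (SE 0.906) between treatments, both within the spread of the biosamples. Subsamples show how unsteady such levels were: biosample 7 had 8.53 and 13.91 CPM in input and 0.19 (2 reads) and 4.23 CPM (51 reads) in TRAP. The value without the lower subsample lies among the higher pulldown values of the group.

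Ramp1, the accessory protein, had 7.3, 4.31, 3.18 and 3.52 CPM in the normal inputs and 6.63, 0.56, 0.31 and 2.51 CPM in the normal pulldowns, lower in TRAP in 4 of 4. In the paclitaxel inputs it had 6.44, 7.84, 5.315 and 5.66 CPM. The paclitaxel pulldowns had 15.07 CPM in biosample 5, from 230 reads, 0 reads in biosample 6 and in both subsamples of biosample 7, and 2.46 CPM in biosample 8. In a library as deep as the pulldown of biosample 6, 0 reads allow a level of up to 0.0917 CPM, so within 1 group Ramp1 ranged from under its own floor to above every input value. Differences were -0.98 (SE 0.677) in normal and -1.41 (SE 0.677) in paclitaxel. Without biosample 5 the paclitaxel difference was -2.25, and without biosample 6 it was -0.83. With edgeR, which adds no 1 to the values, it was -3.64, and under quantile normalization the normal difference turned to 0.24.

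Between treatments Ramp1 overlapped in both fractions, with differences of 0.01 (SE 0.950) in TRAP and 0.43 (SE 0.292) in input and a contrast of the paired differences of -0.43 (SE 0.957). Its TRAP difference turned sign without biosample 2 (-0.26), 3 (-0.35), 5 (-0.85) or 8 (-0.11), and also with a pseudocount of 0.1 (-0.90), median-ratio scaling (-0.16) or quantile normalization (-0.42). The deepest pulldown, biosample 6 with 32713514 reads, had 0 Ramp1 reads, and the shallowest, biosample 4 with 5972327 reads, had 15. The part of depth in these values was not tested. The highest pulldown values of Calcrl, in biosample 6, and of Ramp1, in biosample 5, were both in paclitaxel pulldowns with few genes at 1 CPM. Over the 16 libraries Calcrl and Ramp1 did not follow each other (r 0.11, rho 0.16), nor did either follow Calca (r 0.21 and -0.14) or Calcb (r 0.11 and -0.02).

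**Figure D4:**
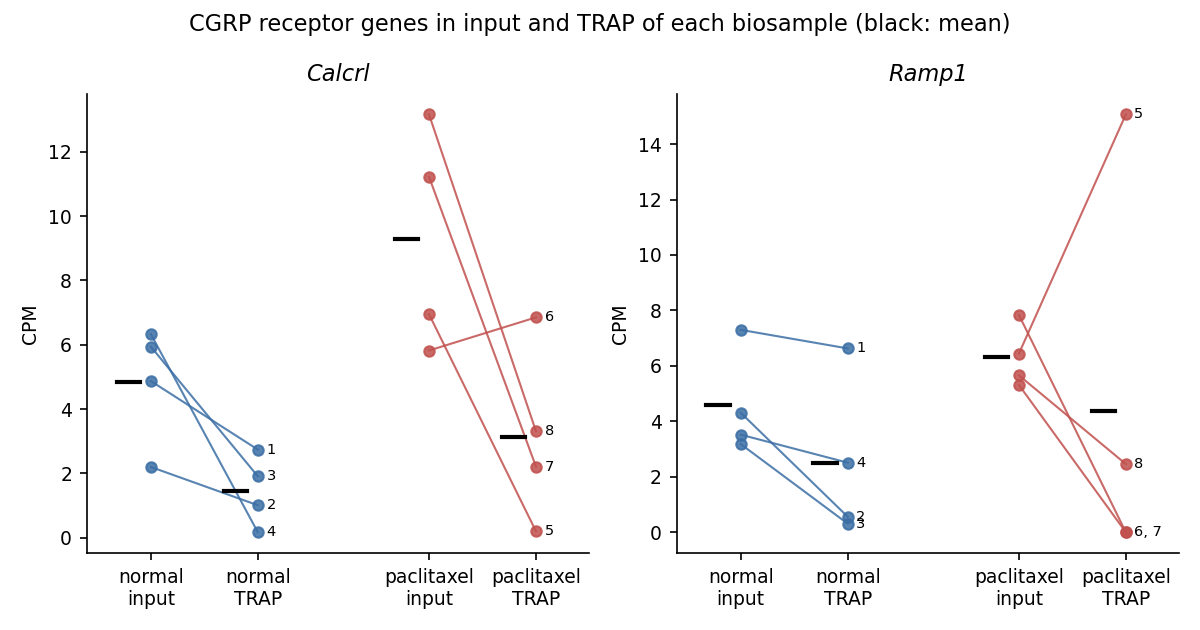
Calcrl and Ramp1 in CPM (linear y axes) for input and TRAP of each normal (blue) and paclitaxel (red) biosample, drawn as for the peptide genes. Most lines go down from input to TRAP, except biosample 6 for Calcrl and biosample 5 for Ramp1, which has 15.07 CPM.

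CLR and RAMP1 are known from blood vessels, glia and neurons, so markers of other cells stand beside the receptor genes. The summed level of 10 endothelial markers was 196 to 308 CPM in normal input, 184 to 245 in normal TRAP, 299 to 331 in paclitaxel input and 166 to 209 in paclitaxel TRAP, with 0 of the 10 at 0 in all biosamples of a group. The typical marker fell more than the sum. The median difference of the 10 from input was -1.77 in normal and -1.92 in paclitaxel, where that of all tested genes was -0.66 and -0.56. Of the 10 markers, 6 were lower and 1, Egfl7, higher in the normal pulldowns, and 7 lower and 0 higher in the paclitaxel pulldowns (limma, adjusted p under 0.05). In paclitaxel input 1 was higher, Kdr, a VEGF receptor, a call that ended without biosample 1, 4, 5, 6, 7 or 8 (limma adjusted p 0.0559 to 0.196). The share called lower over all tested genes was 24.7% in the normal and 23% in the paclitaxel pulldowns. The share called higher was 5.09% and 4.92% there, and 1.46% in paclitaxel against normal input. Summed pericyte and smooth muscle markers had 302 to 407 CPM in normal input and 88.1 to 185 CPM in normal TRAP, and 341 to 430 and 147 to 243 CPM in paclitaxel. Summed satellite glia markers had 250 to 661 and 92.3 to 159 CPM in normal, and 547 to 859 and 123 to 244 CPM in paclitaxel. Markers of each of these cells thus remained above 0 in the pulldowns, as did Calcrl in 7 of 8 above 1 read. Their part in the Calcrl and Ramp1 values was not tested.

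The other genes of the pathway were taken from 7 lists with 48 genes, of which 43 were tested. Of the related ligands, Adm2 and Iapp (amylin) had no reads in any of the 16 libraries. Adm, the vasodilator adrenomedullin, whose receptors also contain CLR, had 4.37 ± 1.39 CPM in paclitaxel input (SD, n = 4) and 0 reads in 3 of 4 paclitaxel pulldowns. It reached 1 CPM in 4 of 4 paclitaxel inputs, in 2 of 4 normal inputs and in 0 of 8 pulldowns, so it passed the filter only through the group where it is high, and its values are a description with no test. Of the other receptor parts, Calcr, the calcitonin receptor, had no reads in the 8 pulldowns and at most 0.28 CPM in the inputs. Ramp2, the partner that makes CLR an adrenomedullin receptor, fell in the normal pulldowns by 1.87 (SE 0.582, limma adjusted p = 0.0195), where input had 17.5 ± 7.51 CPM and TRAP 5.60 ± 6.17 CPM (SD, n = 4). It overlaps Vps25 on its strand, and its call was lost without biosample 2 or 4 (0.0643 and 0.0638). Ramp3 (4.77 ± 5.21 CPM in normal TRAP) and Crcp, a small protein that couples the receptor to its signal (5.50 ± 4.80 CPM), passed in no comparison.

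In the normal pulldowns 4 of the 43 tested genes were higher and 8 lower than in input, and 31 did not pass (limma adjusted p under 0.05; 5.09% of all tested genes were higher and 24.7% lower). The median of the 43 was -0.15 where that of all genes was -0.66. The genes that rose were Cpe, the carboxypeptidase that trims peptide precursors (1.16, limma adjusted p = 6.1e-05), Scg3 and Scg2, granins of dense-core vesicles (0.81 and 0.65, adjusted p = 0.00189 and 0.00821), and Arrb2, a beta-arrestin that turns off receptors (0.85, adjusted p = 0.0364). Cpe went from 1925 ± 333 to 4312 ± 850 CPM (SD, n = 4). The genes that fell included Elavl2 and Elavl4, neuronal RNA-binding proteins of the Hu family, known to steer Calca splicing (-1.57 and -1.32, adjusted p = 6.2e-05 and 2.5e-05). In the cyclic AMP pathway Creb1, its transcription factor, fell by 1.36 (adjusted p = 0.000785), Prkar1a, a regulatory subunit of protein kinase A, by 0.73 (0.00573), and the adenylyl cyclases Adcy6 and Adcy8 by 2.06 (0.0172) and 1.53 (0.0314). Prkaca, the catalytic subunit, fell by 0.52 (0.0476), a direction that was lost with edgeR (0.0033).

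Of these calls 6 ended without 1 biosample. Scg2 did not pass without biosample 1 (limma adjusted p = 0.0528), Arrb2 without 1, 3 or 4 (0.0645 to 0.185), Adcy6 without 1 or 2 (0.0707 to 0.073), Adcy8 without 1 or 2 (0.135 to 0.157), and Prkaca without 2, 4, 5, 6, 7 or 8 (0.0546 to 0.288), besides Ramp2 above. Cpe, Creb1, Elavl2, Elavl4, Prkar1a and Scg3 passed without each biosample in turn. Under median-ratio scaling Prkar1a (-0.29, limma adjusted p = 0.305), Adcy8, Prkaca and Ramp2 did not pass. With edgeR Prkar1a (-0.215, edgeR adjusted p = 0.561), Adcy6, Adcy8, Prkaca and Ramp2 did not pass. Under quantile normalization Scg2, Adcy6, Adcy8 and Ramp2 did not pass (limma adjusted p 0.0516 to 0.716).

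In the paclitaxel pulldowns 9 of the 43 were higher and 6 lower, and 28 did not pass (4.92% of all tested genes were higher and 23% lower). Their median was 0.0057, against -0.56 for all genes. All the processing and vesicle genes that passed were higher: Scg3 (1.27, limma adjusted p = 3.4e-05), Chga, chromogranin A (1.01, 0.0065), Pcsk2, a proprotein convertase (0.86, 0.0178), Cpe (0.67, 0.00821) and Scg2 (0.65, 0.00828). Scg3 went from 708 ± 181 to 1713 ± 470 CPM (SD, n = 4). Of the protein kinase A regulatory subunits Prkar1b (0.56, 0.0463), Prkar2a (0.60, 0.0211) and Prkar2b (0.56, 0.0231) rose and Prkar1a fell (-0.67, 0.0103). Of the adenylyl cyclases Adcy5 rose (1.13, 0.0339) and Adcy1 fell (-2.55, 0.00219). Creb1 (-1.07, 0.00609), Elavl2 (-0.92, 0.00769) and Mme, the peptidase neprilysin, which degrades CGRP among other peptides (-1.95, 0.00268), also fell. The 6 lower genes count Adm, which the filter admitted only through its paclitaxel inputs.

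Adcy1, Creb1, Mme and Scg3 passed without each biosample in turn, and with edgeR 3 of these 4, all but Scg3, did not (limma gave the values above; edgeR adjusted p 0.0611 to 0.0868). Chga and Scg2 did not pass without biosample 6 (limma adjusted p = 0.0677 and 0.0548), and Cpe, Elavl2 and Prkar2a not without 5 or 6 (0.0611 to 0.138). Pcsk2 did not pass without 5 or 7 (0.108 to 0.124), Prkar1a without 6 or 7 (0.0506 to 0.078), Adcy5 without 5, 6, 7 or 8 (0.0595 to 0.137), Prkar1b without 3, 5, 6 or 7 (0.0537 to 0.283) and Prkar2b without 5, 6 or 8 (0.0655 to 0.158). Under median-ratio scaling Prkar1a (-0.36, limma adjusted p = 0.208) and Elavl2 (-0.60, 0.0647) did not pass. With edgeR these genes did not pass either (edgeR adjusted p = 0.424 and 0.164). The count of 15 was 6 without biosample 6, 8 without biosample 5, 8 without biosamples 1, 2, 5 and 6, and 8 in the fit without the biosample block.

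**Figure D5:**
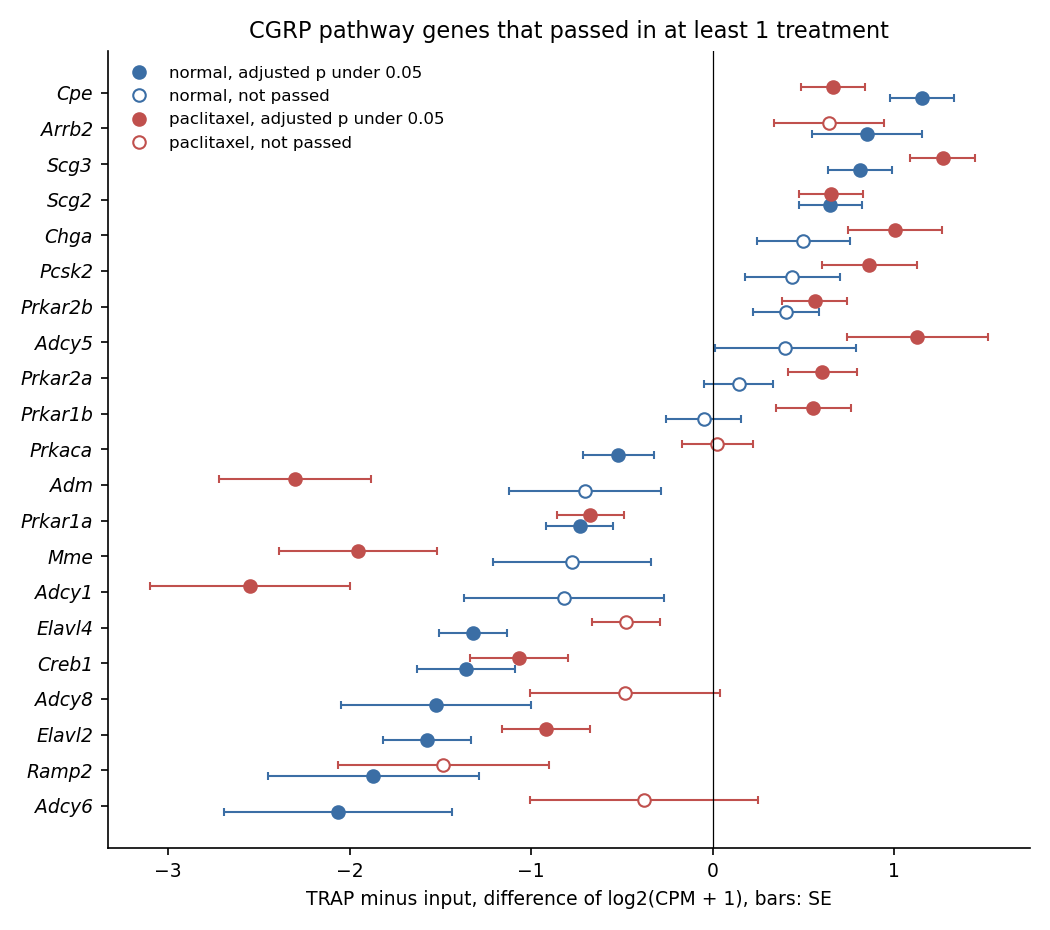
TRAP minus input differences of log2(CPM + 1) (x axis) with SE for the 21 pathway genes that passed in at least 1 treatment, normal in blue and paclitaxel in red; filled circles passed at an adjusted p under 0.05 (limma) and open circles did not. The vesicle and processing genes Cpe, Scg3, Scg2, Chga and Pcsk2 lie right of 0 in both treatments, and Elavl2, Elavl4, Creb1 and Mme left of it. Adm passed the filter on low values only through paclitaxel input, where it is high.

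Between treatments fewer of the pathway genes passed. In TRAP 1 of 43 rose after paclitaxel and 0 fell (limma; 1.33% of all tested genes were higher and 0.492% lower): Prkaca rose by 1.68 (SE 0.394, adjusted p = 0.0462), where normal TRAP had 410 ± 239 CPM and paclitaxel TRAP 1123 ± 123 CPM (SD, n = 4). In input 1 rose and 0 fell (1.46% and 0.183% of all): Adcy6 rose by 1.11 (SE 0.259, limma adjusted p = 0.0479), where normal input had 9.15 ± 2.25 CPM and paclitaxel input 20.7 ± 4.19 CPM (SD, n = 4). Prkaca did not pass without biosample 1, 2, 4, 5, 6, 7 or 8 (limma adjusted p 0.0596 to 0.192), nor Adcy6 without 1, 4, 5, 6, 7 or 8 (0.0596 to 0.212). The calls over all tested genes moved as well. In TRAP they went from 259 to 0 without biosample 2 or 8, and to 491 without 3. In input they went from 233 to 0 without biosample 1, and to 831 without 2. At an unadjusted p under 0.05 there were 10 genes in TRAP and 13 in input with limma, and 11 and 17 with edgeR, of which 2 and 0 passed adjustment. Of all 14214 tested genes, 2400 in TRAP and 2720 in input were under this limit with limma, and 2214 and 2528 with edgeR. In the contrast of the paired differences between treatments 0 of 43 passed with limma and 0 with edgeR. Of all 14214 tested genes, 0.162% were higher and 0.0281% lower with limma, and 0 passed with edgeR. At an unadjusted p under 0.05 there were 4 of the 43 with limma and 1 with edgeR in this contrast. Of all tested genes, 1611 and 1203 were under it. Of the 9 peptidergic markers 0 passed this contrast, with a median of 1.30. The comparisons between treatments in TRAP, the paired comparisons and their contrast share libraries.

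The genes whose pattern over the 16 libraries was most like each of the 4 were listed, among 10499 genes with a mean of at least 5 CPM. For Calca these were Mxd3, a transcriptional repressor (r 0.96, rho 0.94), Gnal, a G protein alpha subunit (r 0.94, rho 0.95), and Fam132a (r 0.93, rho 0.91). Their group means, like those of Calca, were highest in paclitaxel TRAP and lowest in normal TRAP: Mxd3 had 23.8 CPM in normal input, 14.2 in normal TRAP, 30.8 in paclitaxel input and 54.6 in paclitaxel TRAP. Mxd3 overlaps Prelid1 on the other strand and Gnal overlaps Chmp1b on its own. For Calcb they were Atp5j2, an ATP synthase subunit (r 0.96, rho 0.94), Rpl37, a ribosomal protein (r 0.95, rho 0.97), and Eif1, a translation initiation factor (r 0.95, rho 0.94). For Calcrl they were Cdh13 (r 0.93, rho 0.89), Ly6e (r 0.91, rho 0.84) and Slco2b1, an organic anion transporter (r 0.90, rho 0.88), and for Ramp1 Rnf185, a ubiquitin ligase (r 0.94, rho 0.88), Ipo7, an importin (r 0.89, rho 0.85), and Fmo5 (r 0.88, rho 0.81). Without the 2 libraries farthest from the member's median, r was 0.91 to 0.92 for the genes like Calca and 0.80 to 0.92 for those like Ramp1. These are the highest of many correlations over libraries that share biosamples and groups.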

How the data were processed

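DRG input and TRAP libraries were made with a 3′ mRNA kit (QuantSeq), per the labels' protocols. The submitters' processing notes name Cufflinks 2.2.1, Bowtie2 2.2.9, TopHat2 2.1.1, FastQC 0.11.5 and the build GRCm38.p4; the strand setting of the counting and use of molecular identifiers are not given in the sources used here. The authors headed the deposited values TPM, but they are CPM, counts scaled to a common total over the listed genes: columns sum to 999994 to 1000004, and in each library 98.0% to 99.0% of the values above 0 fell on multiples of what 1 read is worth (tolerance 0.0051 CPM), which gives the reads. The design had assumed the headed unit; the same steps were applied. A further 2 columns, merges by the authors of biosample 7, were not used.

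Values were transformed as log2(CPM + 1), which understates differences of low genes. The 14214 genes that reached 1 CPM in 4 or more of 16 pooled libraries were fitted in R 4.3.3 by limma 3.58.1, with its intensity trend and without robust estimation. TRAP against input and the contrast between treatments came from 1 fit with biosample as a block, since both fractions came from 1 lysate per the labels' protocols; deviations of paired libraries correlated with r 0.053 to 0.376. Paclitaxel against normal was fitted on 8 TRAP and 8 input libraries separately. All p-values are two-sided and Benjamini-Hochberg adjusted over all tested genes (threshold 0.05). The steps were run on simulated data with the same spread for every gene and no differences between biosamples. That run does not show how the paired fit behaves where biosamples differ.

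The 4 genes, the pathway and marker lists and the tests were chosen with earlier results of these data known. Named genes were the 4, pathway genes that passed in at least 1 comparison or lay near 0, the 3 genes most correlated with each of the 4 (named symbols only), and Scn10a; Trpv1, Tac1 and Kdr were added from the marker lists after their values were seen, and 1 marker result is not reported here. Lists of nonpeptidergic, fibroblast, Schwann cell and macrophage markers were also summed. Alternatives were pseudocounts of 0.1 and 5, no filter, median-ratio scaling, quantile normalization, edgeR 4.0.16 (quasi-likelihood, TMM) on recovered reads, each subsample of biosample 7 alone, each biosample left out, no replicate block, and, chosen after seeing the data, a fit without biosamples 1, 2, 5 and 6, the 2 of each treatment whose averaged pulldowns held the fewest genes. Positions and sequences came from GENCODE vM21 (GRCm38), whose gene positions match the deposited ones.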

Additional observations from a re-analysis of the deposited data

Results flagged for a closer look

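In groups of 4 biosamples the highest or lowest value was checked for a gap to its neighbour that takes up most of the group's range; 104 such groups of 26 genes were checked, 4 stood out, and chance gives about 1 in 20. Ramp1 in the paclitaxel pulldown of biosample 5 stood apart at 15.07 CPM, the others lying between 0 and 2.46 CPM. Adm in the paclitaxel pulldown of biosample 8 had 0.28 CPM where the other 3 had 0. Elavl4 in the normal pulldown of biosample 4 had 645.64 CPM, and Scg2 in the normal input of biosample 2 had 1462.78 CPM, each the highest of its group. Calca moved in opposite directions in the treatments, lower in TRAP in every normal biosample and higher in every paclitaxel biosample; the contrast of 1.72 on the log2(CPM + 1) scale was not tested, because the gene was chosen with this difference known.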

How the results depend on the processing

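Calca kept its direction in both paired comparisons, in their contrast and in TRAP between treatments under every alternative run. Its paired difference moved beyond the spread of the biosamples under median-ratio scaling (-0.499 in normal, 1.10 in paclitaxel) and with edgeR (-0.423 and 1.17). Quantile normalization moved the normal differences of Calcrl and Ramp1 to 0.0547 and 0.242, and edgeR moved Ramp1 to -3.64 in paclitaxel and its contrast to -2.45. With edgeR the normal difference of Prkaca turned to 0.0033 (adjusted p = 0.994). The cause of these moves was not tested. Of the counts of pathway genes, 15 in the paclitaxel pulldowns became 8 with no replicate block and 8 without biosamples 1, 2, 5 and 6, and 6 to 16 without each biosample in turn. Leaving out the block moved no other count by over 1.5 times, and it ended the calls of Prkaca, Prkar1a and Scg2 in normal and of Adcy5, Pcsk2, Prkar1a, Prkar1b, Prkar2a, Prkar2b and Scg2 in paclitaxel. In normal pulldowns the count was 8 to 12 without each biosample. Between treatments in TRAP the count of 1 became 2 with a pseudocount of 0.1, quantile normalization or edgeR, 0 with a pseudocount of 5, no filter, median-ratio scaling, either subsample alone or without those 4 biosamples, and 0 to 4 without each biosample (4 without biosample 3). In input the count of 1 became 2 with a pseudocount of 5 or subsample 2 alone, 0 with a pseudocount of 0.1, no filter, median-ratio scaling, quantile normalization, edgeR, subsample 1 alone or without those 4 biosamples, and 0 to 5 without each biosample (5 without biosample 2, 4 without biosample 3). Some pulldown values of the receptor genes rest on 0 to 3 reads, at or under the floor of their library.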
